A study of Mus musculus with 54 samples.

Results

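The comparison sets aortas of C57Bl/6 (C57) mice against aortas of C3H/HeJ (C3H) mice after 40 weeks on a high-fat diet, the last time point of the study. Its members are the arrays whose titles give strain, week 40 and the high-fat diet, 3 arrays of C57 and 3 of C3H, which is 6 of the 54 arrays in the series. The same features were read on 3 C57 and 3 C3H arrays at week 40 on normal chow and on 3 C57 and 3 C3H arrays at week 0 on normal chow. The remaining arrays hold both strains on both diets at weeks 4, 8 and 24. Titles were followed for the week, since another label field lists week 10 where titles give week 8. Each array carried aorta total RNA in one channel and a common total RNA of embryonic day 17.5 mouse embryos in the other. The labels give the strain, diet and week and no further allele or agent. The sources used here do not give sex, age at the start of the diet, the composition of the diet or any pooling of animals. Replicate arrays are not said to be separate animals, and the spread behind each p-value is that between arrays, perhaps only technical.

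C57Bl/6 mice are the standard strain for diet-induced atherosclerosis and form fatty streaks in the aortic root when fed a diet rich in fat and cholesterol. C3H/HeJ mice are largely resistant to such lesions, and they carry an inactivating mutation of Tlr4, the receptor for bacterial lipopolysaccharide. The aortic wall is built mainly of smooth muscle cells with an endothelial lining and an outer layer of fibroblasts and fat, and lesions add macrophages and lymphocytes. The strain comparison after the longest feeding therefore addresses how the arterial wall of a susceptible and of a resistant strain differ once the diet has acted for months. In whole-vessel RNA, fewer cells of a type and less RNA per cell cannot be told apart.

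The values are the deposited log ratios of aorta and embryo RNA for 21446 array features. The sources used here give neither the base nor the direction of the ratio. The values stop at exactly 2 and -2, which makes base 10 likely, and folds below are given for that base only. All signs below would turn if embryo RNA were the numerator. Differences are C57 minus C3H on the deposited log ratio scale, and "higher in C57" means a higher deposited ratio. Features are given by number. The platform annotation lists 17284 of them, but 953 pairs of features that it gives the same symbol had mean ratios correlated at -0.0037 across pairs, so no gene name and no marker of a cell type was read from it, and the tissue could not be checked against markers. The word called marks features whose adjusted p lay under 0.05 (limma over all 54 arrays, Benjamini-Hochberg over the 21179 features tested). The replicate number in the titles divides the series. Principal component 1 took up 29.1% of the variance and separated the 18 arrays with number 3, at -14.3 to -7.31, from the other 36, at -4.26 to 15.8. The number is balanced over the groups, and counts are therefore also given with a term for number 3 and from numbers 1 and 2 alone. The SD of the ratios over features was 0.225, 0.294 and 0.261 on the C57 arrays 1, 2 and 3 at week 40 on high-fat diet, against 0.302, 0.297 and 0.293 on the C3H arrays. Correlations among these 6 arrays ran from 0.534, between C57 arrays 1 and 3, to 0.923, between C3H arrays 1 and 2.

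After 40 weeks on high-fat diet, 426 of 21179 features differed between the strains (2.01%). Of these, 284 were higher in C57 (1.34%) and 142 were lower (0.67%). The median size of the difference among called features was 0.307, with a range from 0.109 to 1.34, against 0.0572 over all tested features. There were 222 called features that differed by over 0.3 and 46 that differed by over 0.5. The arrays of the strains did not overlap for 402 of the called features, where 10.3% of all features measured on the 6 arrays showed no overlap. The same sign stood in all 3 same-numbered pairs for 417 of the called features. Within each number, the median difference in the direction of the call was 0.252 in number 1, 0.318 in number 2 and 0.306 in number 3. The median absolute difference over all features was 0.0753, 0.0848 and 0.103 in the same order. The calls were made on these same arrays, so the agreement of the pairs is largely set by the choice and is a description only. With a term for number 3, 1430 features were called (6.75%), 824 higher (3.89%) and 606 lower (2.86%), and all 426 were among them. Numbers 1 and 2 alone gave 1064 called features (5.02%), 335 of them among the 426. The split by direction changed with the fit: numbers 1 and 2 alone gave 530 higher (2.5%) and 534 lower (2.52%), and a fit of the 6 arrays alone called 1 higher and 7 lower. The count fell to 200 without C3H array 2, to 258 without C3H array 1 and to 272 without C57 array 3. It rose to 588 without C3H array 3, to 483 without C57 array 2 and to 474 without C57 array 1.

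**Figure D1:**
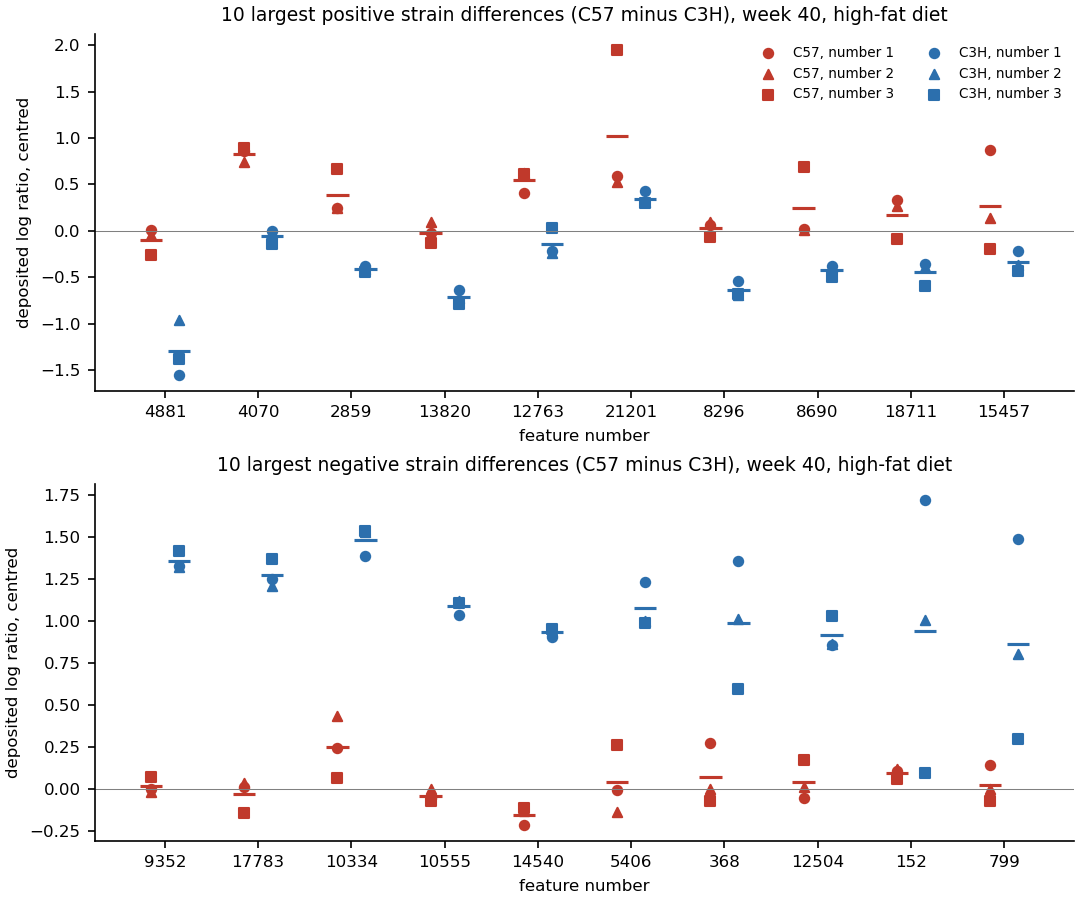
Deposited log ratio, centred on each array's median (vertical axes), of the 10 features with the largest positive and the 10 with the largest negative C57 minus C3H difference at week 40 on high-fat diet (horizontal axes, feature number). Points are single arrays, with circles, triangles and squares for numbers 1, 2 and 3, and bars are group means; feature 21201 on C57 array 3 (1.95) and feature 152 on C3H array 3 (0.09) lie far from the other arrays of their group.

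Most of the largest differences were already present at week 0. Among the 10 largest negative differences, features 9352, 17783, 10334, 10555, 14540, 5406 and 12504 were lower in C57 at week 40 on high-fat diet and also at week 0. Each of these 7 was called in all 9 conditions of week and diet, all in the same direction. Feature 9352 had ratios of -0.003, -0.02 and 0.07 on the C57 arrays, against 1.32, 1.32 and 1.41 on the C3H arrays. The gap between the strains was far wider than the spread within either. Its difference was -1.34 (SE 0.0757, limma adjusted p = 1.99e-16), a 21.7-fold lower ratio in C57 if the base is 10. At week 0 it was -1.10 (SE 0.0757).

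Feature 17783 had ratios of 0.01, 0.04 and -0.14 on the C57 arrays, against 1.25, 1.21 and 1.36 on the C3H arrays. Its difference was -1.30 (SE 0.0698, limma adjusted p = 3.99e-17), and -1.21 at week 0. Feature 14540 had the smallest error of the 20 largest differences: -0.21, -0.13 and -0.11 in C57 against 0.90, 0.94 and 0.95 in C3H, a difference of -1.08 (SE 0.0551, limma adjusted p = 1.37e-17). In both features the C57 arrays sat near the array median and the C3H arrays far above it. Feature 10334 gave 0.25, 0.43 and 0.06 in C57 and 1.38, 1.53 and 1.53 in C3H, a difference of -1.23 at week 40 on high-fat diet against -0.81 at week 0. Feature 10555 gave -0.06, -0.003 and -0.07 in C57 and 1.03, 1.12 and 1.10 in C3H, a difference of -1.13 against -0.72 at week 0. These 2 features had larger differences at week 40 on high-fat diet, but the change from week 0 did not pass the adjusted test (limma adjusted p = 1 for 10334 and 0.974 for 10555). The differences of features 5406 and 12504 were -1.03 and -0.87 at week 40 on high-fat diet, and -0.75 and -0.73 at week 0.

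Among the 10 largest positive differences, features 4881, 4070, 2859, 13820, 12763, 8296 and 18711 were called at week 0 as well, higher in C57 both times. Feature 4881 had ratios of 0.01, -0.04 and -0.27 on the C57 arrays, against -1.55, -0.96 and -1.39 on the C3H arrays. The C57 arrays stayed close to the array median while the C3H arrays lay far below it. Its difference was 1.20 (SE 0.195, limma adjusted p = 0.000132), or 15.9-fold if the base is 10, and 1.31 at week 0. Feature 4070 had 0.86, 0.74 and 0.90 in C57 against -0.01, -0.02 and -0.15 in C3H, a difference of 0.89 (SE 0.0873, limma adjusted p = 3.82e-09), with 0.67 at week 0. For this feature it was the C57 arrays that stood away from the array median. Feature 2859 had 0.25, 0.24 and 0.67 in C57 against -0.38, -0.42 and -0.44 in C3H, a difference of 0.80, with 0.50 at week 0. Here C57 array 3 lay above both other C57 arrays, and numbers 1 and 2 alone gave 0.65. Features 13820, 12763, 8296 and 18711 differed by 0.70, 0.68, 0.67 and 0.62 at week 40 on high-fat diet. At week 0 they differed by 0.48, 0.83, 0.60 and 0.54. Feature 12763 was the only one of the 4 with the smaller difference at week 40.

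The other 6 of the 20 largest differences were not called at week 0, and 5 of them lost the call when 1 array was left out. Feature 368 had ratios of 0.28, -0.002 and -0.07 on the C57 arrays, against 1.35, 1.01 and 0.60 on the C3H arrays. The strains did not overlap, and the C3H arrays were widely spread. Its difference was -0.92 (SE 0.196, limma adjusted p = 0.00613), or 8.31-fold if the base is 10. At week 0 the ratios were 0.41, 0.14 and -0.39 in C57 against -0.09, 0.02 and 0.46 in C3H, overlapping, with a difference of -0.08. Without C3H array 1 the week 40 difference was -0.74 (limma adjusted p = 0.0777).

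Feature 799 had ratios of 0.14, -0.003 and -0.07 in C57 against 1.48, 0.80 and 0.30 in C3H, a difference of -0.84 (SE 0.173, limma adjusted p = 0.00364). All C3H arrays lay above all C57 arrays, with C3H array 1 far above the other C3H arrays. Without that array the difference was -0.53 (limma adjusted p = 0.0951). Feature 152 had 0.10, 0.12 and 0.06 in C57 against 1.72, 1.002 and 0.09 in C3H, a difference of -0.84 (SE 0.227, limma adjusted p = 0.0364). C3H array 3 fell among the C57 arrays, so the strains overlapped. The call was lost with any one of the 6 arrays left out except C3H array 3, without which the difference was -1.27.

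The other 3 features called at week 40 but not at week 0 were higher in C57. Feature 21201 had ratios of 0.59, 0.52 and 1.95 in C57, against 0.43, 0.32 and 0.30 in C3H, a difference of 0.67 (SE 0.162, limma adjusted p = 0.0150). All 3 C57 arrays lay above the C3H arrays, and C57 array 3 stood far from the rest. Without C57 array 3 the difference was 0.21 (limma adjusted p = 0.208), and the call was also lost without C3H array 2 (limma adjusted p = 0.0746). At week 0 the strains were at 0.08, 0.06 and 0.12 in C57 and 0.08, 0.10 and 0.09 in C3H. Feature 8690 had 0.02, 0.01 and 0.69 in C57 against -0.38, -0.39 and -0.50 in C3H, a difference of 0.67 (limma adjusted p = 0.000111), and 0.22 at week 0. It remained called without C57 array 3, at 0.44. Feature 15457 had 0.87, 0.14 and -0.20 in C57 against -0.22, -0.37 and -0.43 in C3H, a difference of 0.61 (limma adjusted p = 0.0230). The strains were separated by a narrow gap only, and without C57 array 1 the difference was 0.31 (limma adjusted p = 0.324). The call was lost as well without C3H array 2 (limma adjusted p = 0.104) and without C3H array 3 (limma adjusted p = 0.069).

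The next question was which strain differences appear late. At week 0 on chow, 113 of 21179 features were called (0.534%), 67 with C57 above C3H and 46 with C57 below. With a term for number 3 the count was 411 (1.94%), and from numbers 1 and 2 alone 128. The same-numbered week 0 arrays of the strains deviated together, but so did numbers 1 and 2 across the strains. With the replicate number as a block 441 features were called (2.08%). Fitted on the arrays of each comparison alone, week 0 had more calls than week 40 on high-fat diet, 31 against 8. With the replicate block added there it was 21 against 3. The longer list at week 40 thus depended on taking the spread from more arrays than those compared. Of the 426 features of week 40 on high-fat diet, 72 were also called at week 0, which is 16.9% of the week 40 list and 63.7% of the week 0 list. All 72 had the same direction, 42 higher and 30 lower in C57. The remaining 354 were called at week 40 only, 242 higher and 112 lower, and 41 were called at week 0 only. The 72 shared features had a median difference of 0.437 at week 40 on high-fat diet and 0.355 at week 0, in the direction of the call.

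**Figure D2:**
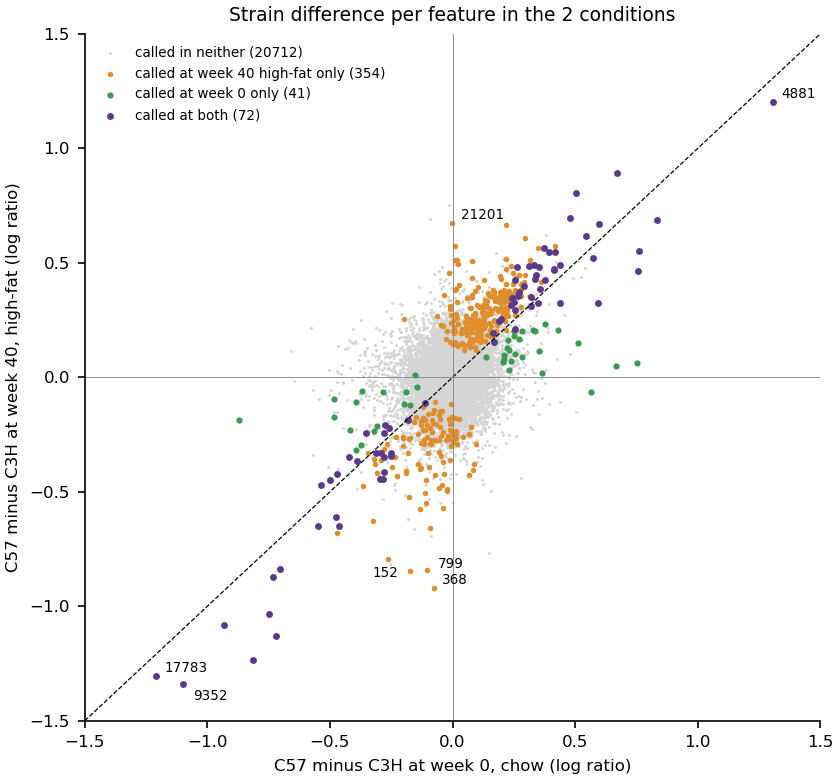
C57 minus C3H difference at week 40 on high-fat diet (vertical axis) against that at week 0 on chow (horizontal axis), both on the deposited log ratio scale, for 21179 features, coloured by the condition in which they were called; the dashed line marks equal differences. The 72 features called at both times lie along the line, and features 368, 799 and 152 lie far below it, with week 0 differences of -0.08, -0.10 and -0.17.

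A call at one time and none at the other does not show a change, so the difference between both strain differences was tested as a contrast of the 4 groups concerned, 12 arrays, within the fit of all 54. Time and diet both changed between these conditions and cannot be told apart in this test. No feature of 21179 passed in limma at the adjusted threshold (0%). At an unadjusted p under 0.05 there were 823 (3.89%), and the smallest adjusted p was 0.325. Nor did any feature pass when the strain difference at week 40 on chow took the place of week 0, so that diet alone differed (0%). There, 672 features had an unadjusted p under 0.05 (3.17%), and the smallest adjusted p was 0.270. Numbers 1 and 2 alone called 6 features there (0.0283%), 368, 2083, 2105, 3797, 13478 and 22113. With quantile normalization 1 feature, 17433, was called for the change from week 0 (limma adjusted p = 0.0440). The values below describe the candidates.

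Feature 8019 had ratios of 0.20, 0.24 and 0.15 in C57 against 0.44, 0.54 and 0.49 in C3H at week 40 on high-fat diet, a called difference of -0.29 (limma adjusted p = 0.00187). At week 0 it had 0.24, 0.23 and 0.28 in C57 and 0.09, 0.28 and 0.10 in C3H. The C57 arrays were close in both conditions, and all C3H arrays of week 40 lay above those of week 0. The change of the strain difference was -0.39 (95% interval -0.55 to -0.23, limma adjusted p = 0.325). At week 24 on high-fat diet the strain difference of this feature was -0.28 and was called as well.

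Feature 3797 had 0.02, -0.06 and -0.07 in C57 against 0.47, 0.55 and 0.15 in C3H at week 40 on high-fat diet, a called difference of -0.43 (SE 0.0764, limma adjusted p = 0.00065). On chow it had 0.07, 0.07 and 0.20 in C57 and -0.05, -0.03 and 0.08 in C3H at week 40, and 0.14, 0.09 and 0.12 in C57 and 0.07, 0.03 and 0.04 in C3H at week 0. In every same-numbered pair C57 was the lower strain on the high-fat diet and the higher one on chow at both weeks. The strain difference changed by -0.49 from week 0 (limma adjusted p = 0.360) and by -0.54 from week 40 on chow (limma adjusted p = 0.270). Without C3H array 3 of the high-fat group both changes passed, at -0.61 (limma adjusted p = 0.00923) and -0.66 (limma adjusted p = 0.00206).

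Feature 13478 had 0.46, 0.51 and 1.26 in C57 against 0.19, 0.16 and 0.35 in C3H at week 40 on high-fat diet, a called difference of 0.51 (SE 0.0995, limma adjusted p = 0.00187). In the other 8 conditions its strain difference lay between -0.06 and 0.02. The change from week 40 on chow was 0.53 (95% interval 0.24 to 0.81, limma adjusted p = 1), and in numbers 1 and 2 alone 0.36 (limma adjusted p = 0.0433). Without C57 array 3 the week 40 difference was 0.25, still called (limma adjusted p = 0.0286), and the change was 0.27 (limma adjusted p = 1). Feature 13577 had 0.14, 0.11 and 0.11 in C57 against -0.11, -0.24 and -0.16 in C3H, with little spread and a called difference of 0.29 (limma adjusted p = 6.35e-05), and its change from week 40 on chow was 0.26 (limma adjusted p = 0.739). Features 17433 and 8454 went the other way, with a strain difference called at week 0 and not at week 40 on high-fat diet. Feature 17433 had 0.48, 0.71 and 0.13 in C57 against 0.39, 0.37 and 0.40 in C3H at week 40 on high-fat diet, and 0.59, 0.67 and 0.68 in C57 against -0.06, 0.05 and -0.05 in C3H at week 0. The strains overlapped at week 40 and were far apart at week 0, with differences of 0.05 and 0.67, and the change was -0.62 (limma adjusted p = 0.396). Without C57 array 2 of week 40 it was -0.75 (limma adjusted p = 0.0443). The strain difference of feature 17433 did not simply fade: at week 4 on high-fat diet it was -0.51, called with the opposite sign (limma adjusted p = 0.00308). Feature 8454 had a difference of -0.09 at week 40 on high-fat diet and -0.48 at week 0, a change of 0.39 (limma adjusted p = 0.974). It too was called with the opposite sign at week 4 on high-fat diet, at 0.34 (limma adjusted p = 0.00734). On chow at week 40 it was still called, at -0.33 (limma adjusted p = 0.00847). Feature 10095 had 0.37, 0.36 and 0.49 in C57 against 0.37, 0.37 and 0.37 in C3H at week 40 on high-fat diet, and 0.23, 0.22 and 0.27 in C57 against 0.50, 0.38 and 0.51 in C3H at week 40 on chow. Its strain difference was 0.04 on the high-fat diet, not called, and -0.22 on chow, called (limma adjusted p = 0.0143), and the change was 0.26 (limma adjusted p = 1).

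Read across all 9 conditions, between 300 and 334 of the 354 features called at week 40 but not at week 0 had the sign of that call in each of the 8 other conditions. Their median in the direction of the week 40 call was 0.115 at week 0, then 0.116, 0.140, 0.130 and 0.147 on chow at weeks 4, 8, 24 and 40. On the high-fat diet it was 0.132, 0.136, 0.161 and 0.285 at weeks 4, 8, 24 and 40. The list was chosen on its week 40 high-fat values, which sets that last median high, and the lower ones are a description. At week 0, 325 of the 354 had the sign of the call, against 57.2% of all tested features given the sign of their own week 40 difference. At week 24 on high-fat diet, 96 of the 354 were called, where 1.46% of all features were, and at week 40 on chow 46 of them were, where 0.741% of all features were. The strains contributed unevenly to the features lower in C57 and about evenly to those higher in C57. These changes use the week 40 values that chose the list and are a description. Among the 112 features lower in C57, the median change of the ratio from week 0 to week 40 on high-fat diet was -0.0028 in C57 and 0.172 in C3H, and C57 had the larger change in 13 of them. Among the 242 features higher in C57, the median changes were 0.0686 in C57 and -0.0684 in C3H, and C57 had the larger change in 130.

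**Figure D3:**
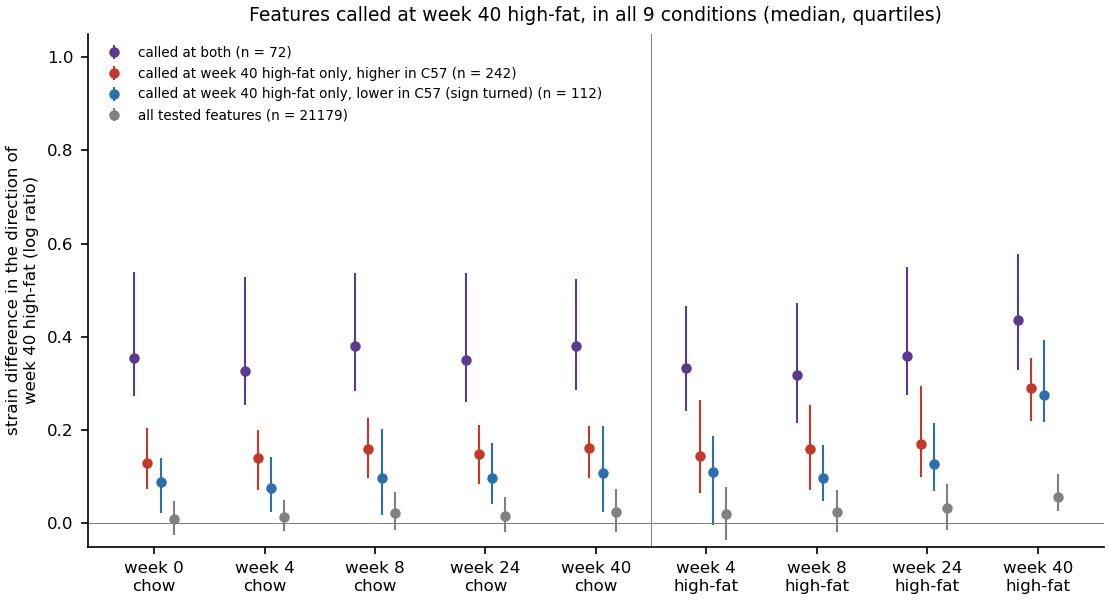
Median strain difference (points) with quartiles (lines), in the direction of the week 40 high-fat difference, on the deposited log ratio scale (vertical axis) in each condition of week and diet (horizontal axis), for features called at both times, for those called at week 40 only by direction, and for all tested features. The median of the 72 features called at both times stays between 0.319 and 0.437 in all 9 conditions. The medians of both groups called at week 40 only lie lower in the 8 other conditions than at week 40 on high-fat diet.

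A smaller set stood out at week 40 on high-fat diet alone. In 56 of the 426 called features (13.1%) the strain difference in each of the 8 other conditions was under 0.5 of that size, a bound set after the values were seen. The same rule gave 91 of 298 called features at week 4 on high-fat diet (30.5%), 16 of 145 at week 8 and 32 of 310 at week 24, and on chow at most 2 in any week. Such features were thus found in each high-fat week, and week 40 did not have the largest number. The 56 split into 31 higher and 25 lower in C57. The strain whose mean lay farther from its other conditions differed by direction. This was read from the same week 40 means that chose the features and is a description only. In all 25 lower features the C3H mean was the one farther from its own mean over the other conditions, by a median of 0.408, against -0.0037 in C57. In 26 of the 31 higher features it was the C57 mean, with a median change of 0.202 in C57 against -0.0428 in C3H.

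The median ratio of the 25 lower features was 0.0072, -0.0565 and 0.0063 on C57 arrays 1, 2 and 3, against 0.643, 0.377 and 0.204 on C3H arrays 1, 2 and 3. All 3 C3H arrays lay above the C57 arrays, by very different amounts. Without C3H array 1, 5 of the 25 were called, without any other array of the 6 between 14 and 23, and numbers 1 and 2 alone called 24. The median ratio of the 31 higher features was 0.0189, 0.0316 and 0.451 on C57 arrays 1, 2 and 3, against -0.108, -0.148 and -0.0550 on the C3H arrays. Here C57 array 3 stood apart from both other C57 arrays. Without C57 array 3, 2 of the 31 were called, without C3H array 2 8, without C3H array 1 11, and numbers 1 and 2 alone called 9. Other settings also called fewer of both sets: each series of strain, diet and number as a random block called 7 of the 31 and 10 of the 25, scaling to one spread 8 and 5, quantile normalization 11 and 10, and the 6 arrays alone 0 and 0. What set C3H array 1 and C57 array 3 apart was not tested.

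Features 368, 152 and 799 belong to the 25 lower ones, as do features 183 and 583, and the plot by week shows these 5, the largest of the 25. Feature 183 had -0.08, -0.15 and 0.31 in C57 against 1.38, 0.67 and 0.41 in C3H, a difference of -0.79 (limma adjusted p = 0.00689). Feature 583 had 0.10, -0.17 and 0.13 in C57 against 0.92, 0.63 and 0.48 in C3H, a difference of -0.66 (limma adjusted p = 0.00365). In both, C3H array 1 was highest and C3H array 3 lowest, the order also seen in features 368, 799 and 152. Without C3H array 1 the differences were -0.52 for feature 183 (limma adjusted p = 0.135) and -0.54 for feature 583 (limma adjusted p = 0.0553), neither called. Across the arrays on which both were measured, feature 368 correlated at 0.907 with feature 152 (48 arrays), at 0.880 with feature 799 and at 0.870 with feature 583 (49 arrays each), and at 0.787 with feature 183. Feature 1012, at 0.904, was as close but was not called at week 40 on high-fat diet (-0.56, limma adjusted p = 0.107). These correlations describe arrays that share groups and replicate numbers, and they include the arrays that set the features apart.

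**Figure D4:**
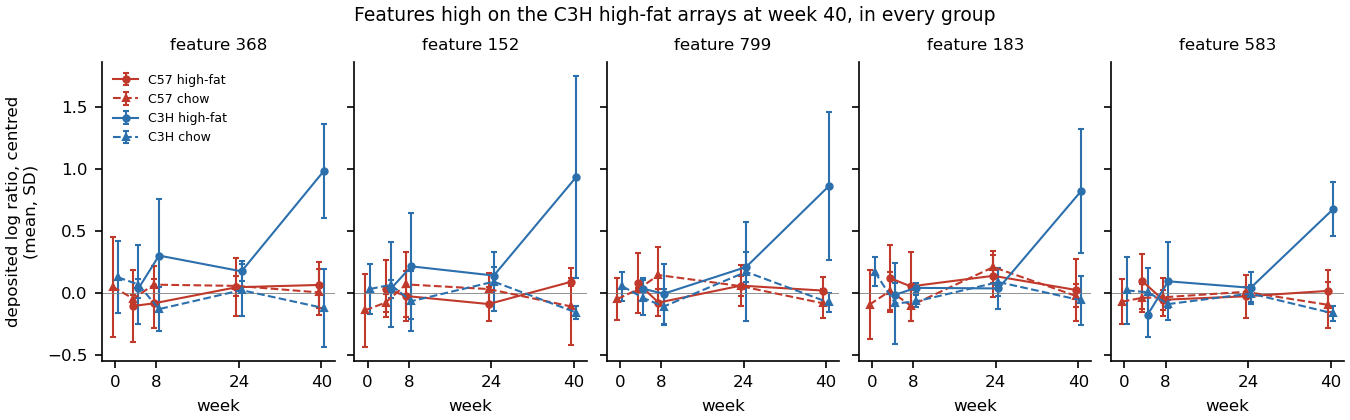
Deposited log ratio, centred (vertical axes, mean with SD over the 2 or 3 measured arrays of a group), against week (horizontal axes) for features 368, 152, 799, 183 and 583 in C57 (red) and C3H (blue), on high-fat diet (solid lines, circles) and chow (dashed lines, triangles). The C3H high-fat mean at week 40 lies between 0.68 and 0.99 in the 5 features, with a wide SD, and the C57 high-fat mean between 0.02 and 0.09.

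Low feature numbers were frequent, though not general, among the features with a late C3H value. Of the 25 lower features, 14 were numbered 2000 or less, and of the 31 higher ones 1 was, where 8.99% of all tested features fall in that stretch, whose end was set after the values were seen. Without C3H array 1, 0 of the 14 were called by limma, and numbers 1 and 2 alone called all 14. All 6 features whose ratio over the arrays correlated with that of feature 368 at over 0.8 lay in the stretch. Of these 6, 3 were called, and those 3 were already counted among the 14. Just under the bound of 0.8, feature 183 in the stretch reached 0.787 and feature 2315 outside it reached 0.781. That all 6 lay in the stretch thus depends on where the bound was put. Among the 947 tested features numbered 1 to 1000, 15 were called lower in C57 (1.58%), against 0.67% of all tested features. Another 6 were called higher, where 1.34% of all tested features were. Of the 958 from 1001 to 2000, 10 were called lower (1.04%) and 26 higher. In either direction 3.76% were called there, the highest share of any stretch, against 2.01% of all tested features. The sources used here do not say whether the number reflects a place on the array, a clone set or another order. Any part of position in these differences was not tested.

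**Figure D5:**
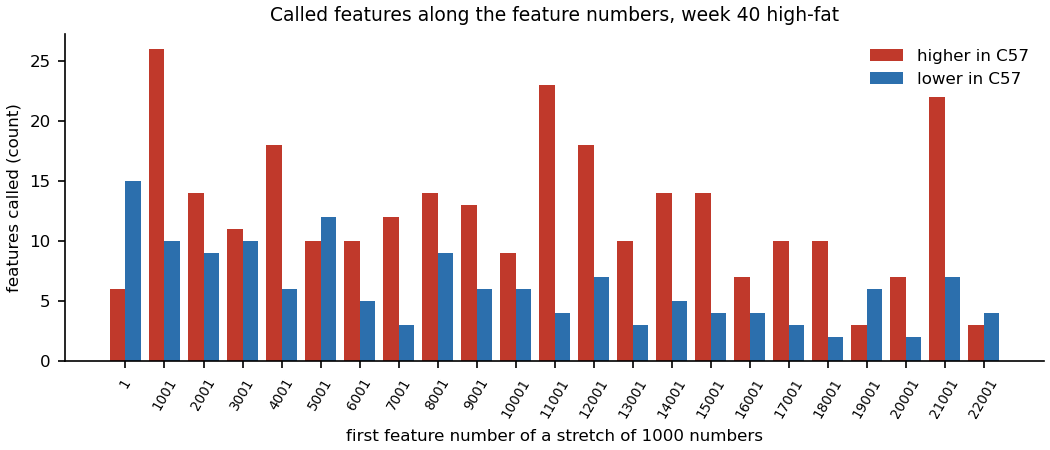
Number of features called at week 40 on high-fat diet (vertical axis) in stretches of 1000 feature numbers (horizontal axis, first number of the stretch), higher in C57 (red) and lower in C57 (blue); the last stretch holds fewer features. The first stretch is the one with the most features lower in C57, 15 against 6 higher.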

How the data were processed

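The authors deposited 1 table of log ratios per feature and array, taken here as log10 ratios from the limits of 2 and -2 in the deposited values. The sources used here name no dye, scanner, background correction or normalization. Deposited array medians were -0.0117 to 0.0118. Exact zeros (7895, 0.682% of values) were treated as not measured, and arrays were centred by their medians over the 20694 features with a value on all 54 arrays. Tests covered the 21179 features with 2 or more values in every one of the 18 groups and left out 267. The fit of the 18 group means used limma 3.58.1 under R 4.3.3 (lmFit, contrasts.fit, eBayes, two-sided), with no block. The calling was tested on simulated data, and the outcome is not given here. Nothing is read from that test about the replicate number or about single arrays that stood apart. Ratios hold no signal over background. Precision is limited by the number of arrays.

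Named are the 10 largest called differences of each sign at week 40 on high-fat diet, measured on all 6 arrays and of one sign in all 3 pairs. For the comparisons with no call, the 3 smallest p-values of each sign are named. Lists and comparisons were chosen with earlier results of these data known.

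Same-numbered arrays of the strains deviated from their group means with correlations of 0.0202, 0.0305 and 0.323 at week 40 on high-fat diet, and 0.237, 0.315 and 0.620 at week 0. By a bound of 0.1, every same-numbered pair passed at week 0 and not every one at week 40 on high-fat diet. Unlike numbers passed at week 0 as well. C57 array 2 with C3H array 1 reached 0.432, and C57 array 1 with C3H array 2 reached 0.135. Number 3 correlated with the other numbers there at -0.589 to -0.290. Number 3 was thus set apart at week 0, while numbers 1 and 2 were not told apart there. At week 40 on chow same-numbered arrays correlated at 0.348, 0.223 and 0.540. Every pair of unlike numbers was negative there, from -0.430 to -0.0356, so in that condition numbers 1 and 2 were told apart too. On high-fat diet at week 40 the highest value, 0.409, was C57 array 1 with C3H array 2. The labels do not say what the number stands for. The alternatives tried were the replicate number as a block or a term, numbers 1 and 2 alone, fewer arrays in the fit, a random block for each series, other centring and scaling, the treatment of zeros and limit values, other filters and moderation, and each array left out.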

Additional observations from a re-analysis of the deposited data

Results flagged for a closer look

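Among the features named for the largest differences or the smallest p-values, 5 had one sign of the strain difference in every same-numbered pair of arrays at week 40 on high-fat diet and the opposite sign in every pair of a chow condition. All 5 had been named for a small p-value of that same change, so opposite signs in the pairs were favoured by the choice. Other features were not searched. The change between the conditions was tested for each in limma, and with all arrays none passed after adjustment over all 21179 features. Feature 3797 changed by -0.4914 from week 0 (limma adjusted p = 0.360) and by -0.5391 from week 40 on chow (limma adjusted p = 0.270). Feature 7177 differed by 0.25 at week 40 on high-fat diet and by -0.20 at week 0, a change of 0.450 (limma adjusted p = 0.325). Feature 9563 differed by 0.27 and -0.065 in the same conditions, a change of 0.3319 (limma adjusted p = 0.774). Against week 40 on chow, feature 2748 changed by -0.4822 and feature 822 by -0.558 (limma adjusted p = 0.675 each), with differences of -0.34 and -0.47 on the high-fat diet and 0.14 and 0.09 on chow. Without C3H array 3 of the high-fat group feature 3797 passed for both changes, as given above, and without C3H array 2 of that group feature 822 passed for its change, at -0.70 (limma adjusted p = 0.0168). All 5 were called at week 40 on high-fat diet. Feature 822 lost that call without C3H array 1 (-0.30, limma adjusted p = 0.0612), as did feature 2748 (-0.24, limma adjusted p = 0.140), and feature 2748 also lost it without C57 array 2 (limma adjusted p = 0.0638). Feature 9563 lost it without C57 array 3 (0.20, limma adjusted p = 0.0966) or C3H array 2 (limma adjusted p = 0.0573). Feature 7177 lost it without C57 array 2 or 3 or C3H array 2 or 3, with limma adjusted p-values from 0.0818 to 0.285. Groups of 3 arrays are too small for a test of single outlying arrays, and none was made.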

How the results depend on the processing

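The count of features called at week 40 on high-fat diet was 426. With the replicate block it was 1518, with the number 3 term 1430 and from numbers 1 and 2 alone 1064. Fitted on the 6 arrays of the comparison with their own spread it was 8 (4070, 9352, 10334, 10555, 12504, 14540, 16960 and 17783), and with the replicate block added there 3 (9352, 10555 and 14540). Quantile normalization gave 203 and scaling of the arrays to one spread 136. Leaving out each array gave 200 to 588. Each series of strain, diet and number as a random block, with a consensus correlation of 0.467, gave 332. At week 0 the count was 113, with the replicate block 441, with the number 3 term 411, on the arrays of the comparison alone 31 and with the replicate block there 21, and leaving out each array gave 57 to 87. For the change from week 0, with 0 called, quantile normalization gave 1 (17433) and leaving out each array 0 to 1. For the change from week 40 on chow, with 0 called, numbers 1 and 2 alone gave 6 (368, 2083, 2105, 3797, 13478 and 22113), and leaving out each array 0 to 3. The replicate block gave 0 for both changes. The other settings of centring, zeros, limit values, filters and moderation kept each count within 1.5 times, and the features named by rule kept the sign of the difference that named them under each setting run for it. The cause of these shifts was not tested. Fits on 6 arrays take the spread from fewer arrays, and from those 6 alone.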
